A study of Homo sapiens with 3 samples.

Results

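The genes of the proteasome and of its assembly were examined in AGS, a cell line established from a human gastric adenocarcinoma and grown here for 48 h with 1 of 3 additions. The DMSO group received the solvent alone as the negative control, the SFA group received 12 µM of the compound coded SFA, and the SFE group received 18 µM of the compound coded SFE. Each group was 1 library of total RNA depleted of ribosomal RNA, from wells of 1 cell line, with no replicate. Every gene named PSM followed by a letter from A to G and a number was taken, together with POMP, which gave 49 genes of the 50868 listed identifiers. Of these, 47 reached 1 FPKM (a count scaled both to the gene's length and to the total of its library) in at least 1 library, as did 11680 gene names in all. PSMA8, a core subunit of the testis, had no count in any library. PSMB11, the catalytic subunit of the thymus, had 3 counts with DMSO and none with either compound, which allows up to 0.22 CPM (counts scaled to the library total) in those libraries. Only the 47 detected genes enter the numbers of genes and the medians that follow.

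The proteasome is the protease that degrades proteins marked with ubiquitin in the cytosol and nucleus. Its barrel-shaped core particle is built of stacked rings of alpha subunits (PSMA genes), which form the gate, and beta subunits (PSMB genes), some of which carry the cutting sites. A regulatory particle of ATPases (PSMC genes) and further subunits (PSMD genes) binds ubiquitinated proteins, removes the ubiquitin and feeds the chain into the core. Other caps (PSME genes) open the gate without ATP, and dedicated chaperones (POMP, the PSMG genes and some PSMD genes) put the particles together. When proteasome activity is limiting, the transcription factor NFE2L1 is known to raise the transcription of many subunits together through antioxidant response elements. In cells exposed to interferon, 3 of the beta subunits are replaced by the immune subunits PSMB8, PSMB9 and PSMB10.

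Promoter sequence was taken from RefSeq (build GRCh38.p14) for the 43 of the 49 genes that matched by symbol. PSMA7, PSMB1, PSMB6, PSMB7, PSMD4 and PSMG3 had no match. The window ran from 250 bases before the start site to 50 bases after it. The antioxidant response element core, searched as TGACNNNGC on both strands, was found in 13 of the 43 windows (30.2%) against 13.3% of the 35116 windows of the same length in the table. The CCAAT box, searched on both strands, was found in 19 of the 43 (44.2%) against 34.6% of all windows. A match describes the letters only. The 250 bases before the start site are printed for 4 genes, 5′ to 3′ on the gene's strand, with every match of either motif in these bases in capitals (CCAAT on the other strand appears as ATTGG). PSMB3 (chr17:38752491-38752740 on the + strand) had the highest level of all members and holds both motifs, with TGACTTTGC beginning at position -104 and CCAAT at -55 and -13. PSMD3 (chr17:39980557-39980806 on the + strand), a lid subunit, holds TGACTCGGC at -37 and CCAAT on the other strand at -217. PSME3 (chr17:42833147-42833396 on the + strand) had the largest difference from DMSO and holds CCAAT on the other strand at -12. PSMB8 (chr6:32844680-32844929 on the - strand), an immune subunit that was lower with both compounds, holds neither.
PSMB3: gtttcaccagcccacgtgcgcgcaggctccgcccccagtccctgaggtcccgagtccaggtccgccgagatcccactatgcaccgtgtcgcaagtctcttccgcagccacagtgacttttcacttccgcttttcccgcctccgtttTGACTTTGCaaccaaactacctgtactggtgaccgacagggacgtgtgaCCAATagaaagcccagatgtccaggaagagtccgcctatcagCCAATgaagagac
PSMD3: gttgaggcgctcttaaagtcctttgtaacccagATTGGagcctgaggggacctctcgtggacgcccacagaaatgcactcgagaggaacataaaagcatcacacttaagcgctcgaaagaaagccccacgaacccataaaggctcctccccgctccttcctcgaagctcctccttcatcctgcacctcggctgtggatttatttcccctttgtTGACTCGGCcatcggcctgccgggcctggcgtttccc
PSME3: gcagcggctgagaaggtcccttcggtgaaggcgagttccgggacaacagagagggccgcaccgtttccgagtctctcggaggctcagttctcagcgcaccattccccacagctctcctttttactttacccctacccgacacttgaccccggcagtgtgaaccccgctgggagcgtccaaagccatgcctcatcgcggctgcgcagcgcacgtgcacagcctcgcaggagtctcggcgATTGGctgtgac
PSMB8: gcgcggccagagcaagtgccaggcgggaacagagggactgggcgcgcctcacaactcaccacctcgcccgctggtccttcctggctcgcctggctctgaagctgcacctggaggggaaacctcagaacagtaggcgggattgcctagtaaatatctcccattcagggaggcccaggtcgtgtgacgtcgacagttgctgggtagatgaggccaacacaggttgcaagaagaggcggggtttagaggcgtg

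The DMSO library held 18767232 counts, the SFA library 13639844 and the SFE library 13644676. Of the epithelial markers, KRT8 was at 416 (DMSO), 223 (SFA) and 232 (SFE) FPKM and KRT18 at 534, 292 and 294, and EPCAM, KRT19 and CDH1 were each under 0.4 FPKM. The leukocyte, endothelial, erythroid and hepatocyte markers were all under 1 FPKM. Of 4 fibroblast markers, COL1A1 and COL3A1 passed 1 FPKM, the list summed to 20.3 (DMSO), 7.71 (SFA) and 9.68 FPKM (SFE), and DCN and LUM were under 0.4 FPKM. The part of these shifts in the results below was not tested. In such bulk RNA a smaller number of cells of a type and less RNA per cell cannot be told apart.

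The 47 detected proteasome genes were, as a group, slightly higher in both compound libraries than with DMSO. The counts of all 49 genes summed to 109556 in the DMSO library, 97185 in the SFA library and 92839 in the SFE library. This was 0.584% of the DMSO library (exact binomial 95% interval 0.580 to 0.587), 0.713% of the SFA library (0.708 to 0.717) and 0.680% of the SFE library (0.676 to 0.685). The 3 intervals do not overlap, but like all intervals given here they cover counting error only, since no library was repeated. Part of the rise in the summed share came from 1 gene, PSME3, at 127 (DMSO), 417 (SFA) and 338 (SFE) CPM. The share without PSME3 was not computed.

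For each gene the difference between 2 libraries was taken on the log2(FPKM + 1) scale, which understates the change of genes near 1 FPKM. With SFA the median difference of the members from DMSO was 0.18, beside 0.01 over all 11680 genes, and 39 of 47 members were higher (83.0%, against 51.4% of all genes). A difference of at least 1.2-fold upward was seen for 20 members (42.6%), against 18.8% of all genes. PSMB8 and PSMC6 were the 2 members at least 1.2-fold lower, where 17.2% of all genes were. At 2-fold, PSME3 alone was higher, where 1.36% of all genes were, and no member was lower, where 1.34% of all genes were. In counts per library total, the 95% counting interval of the ratio lay above 1 for 31 members (66%, against 27.6% of all genes), below 1 for 5 (10.6%, against 26.8%) and held 1 for 11. That interval narrows with the count, so such shares also depend on how high the genes are.

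With SFE fewer members passed 1.2-fold than with SFA. The median over the members was 0.13, beside 0.03 over all genes, and 34 of 47 were higher (72.3%, against 55.2%). At least 1.2-fold higher were 12 members (25.5%) against 19.6% of all genes. When the libraries were instead scaled by median-ratio size factors, this count was 7 members (14.9%) against 15% of all genes, so that the share of members was then that of all genes, while with SFA it was 17 members (36.2%) against 17%. PSMB8 and PSMG3 were at least 1.2-fold lower with SFE on the log2(FPKM + 1) scale, where 13.5% of all genes were. PSMC6, near 1 FPKM, fell short on that scale, though its ratio of counts was 0.787. PSME3 was again the single member at least 2-fold higher (1.37% of all genes), and no member was 2-fold lower (1.01%). The counting interval of the ratio lay above 1 for 27 members (57.4%, against 28.9% of all genes), below 1 for 6 (12.8%, against 22.8%) and held 1 for 14. SFA and SFE are compared with the same DMSO library, so anything particular to that library enters both comparisons.

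**Figure D1:**
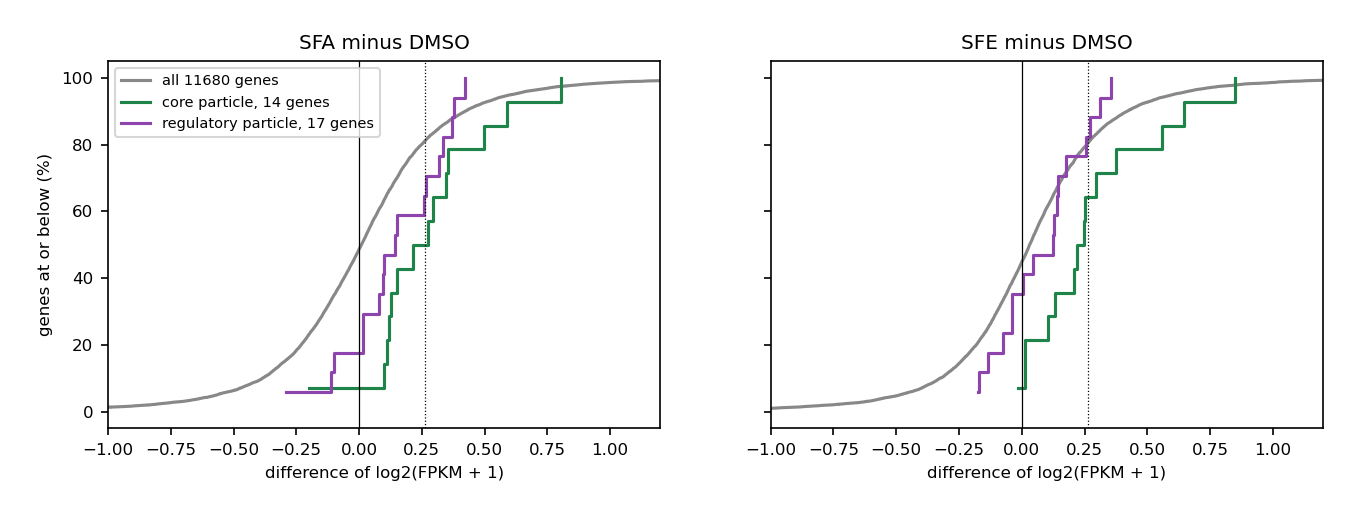
Cumulative share of genes (percent, vertical axis) at or below a difference of log2(FPKM + 1) from DMSO (horizontal axis), for SFA on the left and SFE on the right. The grey line is all 11680 genes, green the 14 core particle genes and purple the 17 regulatory particle genes. The dotted line marks 1.2-fold. The green line lies to the right of the grey one over most of its length in both panels, and the purple line less far to the right.

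**Figure D2:**
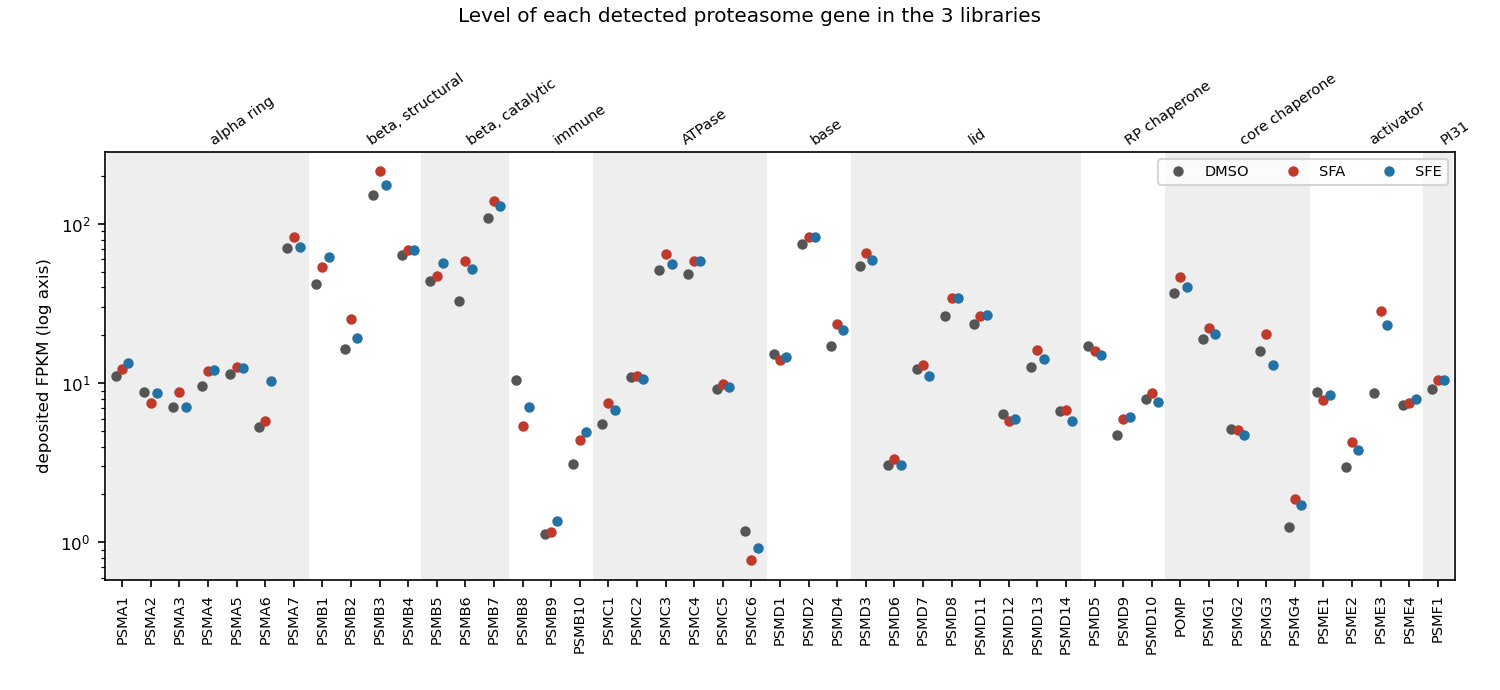
Deposited FPKM (log axis) of each of the 47 detected genes in the DMSO, SFA and SFE libraries, 1 point per library, grouped by role (RP is the regulatory particle, PI31 the product of PSMF1). Members of 1 complex span a wide range, from PSMB3 at 152 to 215 down to PSMC6 at 0.772 to 1.17.

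The levels of subunits that are present in equal number in the particle differed widely. PSMB3 was the highest of the 47 in every library and PSMB7 the next, at 110 to 141 FPKM, followed by PSMD2, PSMA7 and PSMB4. PSMB9, PSMC6 and PSMG4 were the lowest. The deposited FPKM rests on 1 length per gene that was 1.0 to 3.25 times the length of the merged exons in GENCODE 29 (median 1.62 over 48 members), so levels of different genes depend on that length. With the merged exons instead, PSMB3 stayed first and PSMB4 came next, and the same 3 genes were lowest in each library. Ratios of 1 gene between libraries do not depend on the length.

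Among the core particle genes, 13 of the 14 standard subunits were higher with SFA than with DMSO (92.9%, against 51.4% of all genes). Their median difference was 0.25 and 7 were at least 1.2-fold higher (50%, against 18.8%). With SFE, 13 of the 14 were also higher (92.9%, against 55.2%), with a median of 0.23 and 5 at least 1.2-fold higher (35.7%, against 19.6%). The exception was PSMA2 in both libraries. With median-ratio scaling these medians were 0.21 and 0.16, and 13 and 11 of the 14 were higher (47.5% and 44.6% of all genes). PSMA3 and PSMA7 were then also below DMSO with SFE, with ratios of 0.958 and 0.955.

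The 7 alpha ring genes mostly differed little from DMSO. Their median difference was 0.15 with SFA and 0.13 with SFE. PSMA4, a ring subunit, was at 9.65 (DMSO), 11.9 (SFA) and 12.1 (SFE) in FPKM, and its ratio to DMSO was 1.23 (1.17 to 1.3) with SFA and 1.25 (1.18 to 1.32) with SFE. PSMA3, a further ring subunit, was at 7.05 (DMSO), 8.86 (SFA) and 7.13 (SFE), with a ratio of 1.26 (1.13 to 1.4) for SFA and 1.01 (0.902 to 1.13) for SFE. PSMA3 was thus higher with SFA alone, while PSMA4 was higher with both compounds. PSMA2, another ring subunit, had 1179 (DMSO), 734 (SFA) and 847 (SFE) in counts, and was at 8.83 (DMSO), 7.56 (SFA) and 8.72 (SFE) in FPKM. Its ratio was 0.857 (0.78 to 0.94) with SFA, and 0.988 (0.904 to 1.08) with SFE, whose interval holds 1. PSMA7, the ring's most abundant gene here, had ratios of 1.16 and 1.01. PSMA1 had 1.1 and 1.21, and PSMA5 had 1.12 and 1.1, for SFA and SFE.

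PSMA6 (ENSG00000100902, chr14:35278633-35317493, + strand) stood out among the alpha genes in the SFE library, but its counts are tied to those of a neighbour. PSMA6 counts were 1062 (DMSO), 845 (SFA) and 1506 (SFE), which gave 5.3 (DMSO), 5.8 (SFA) and 10.3 (SFE) in FPKM. The SFE library was high and the other two were close. The ratio to DMSO was 1.09 (0.999 to 1.2) for SFA and 1.95 (1.8 to 2.11) for SFE. RP11-561B11.2, a listed gene that overlaps PSMA6 on the same strand, had 807 (DMSO), 785 (SFA) and 293 (SFE) counts. It was low in the library in which PSMA6 was high. The sum of both in CPM was 99.6 with DMSO, 119.5 with SFA (1.2-fold) and 132 with SFE (1.32-fold). How reads were split between overlapping genes is not given in the sources used here, so the ratio for PSMA6 alone in the SFE library is uncertain.

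**Figure D3:**
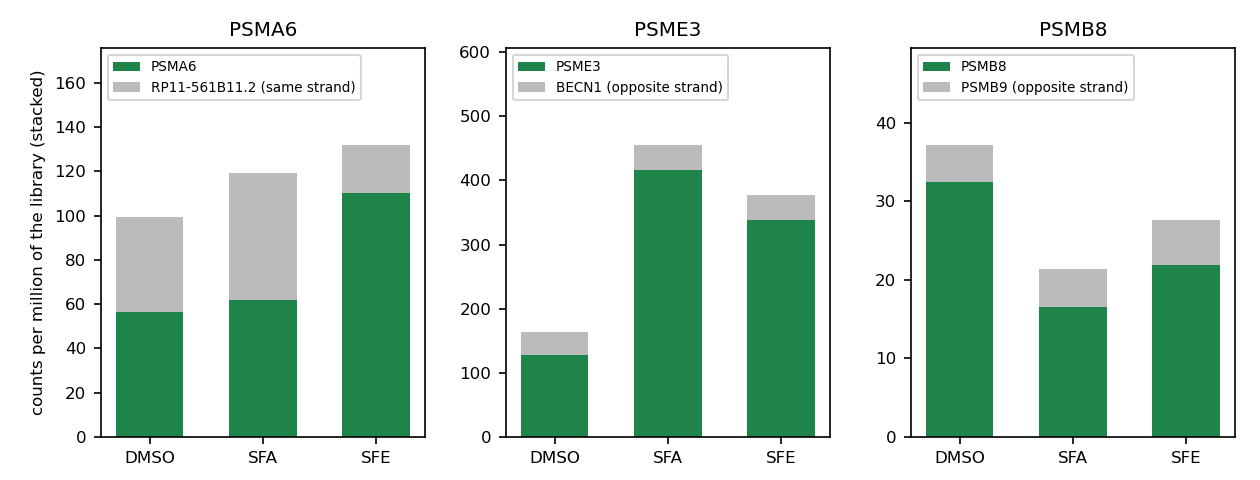
CPM (vertical axis, from 0) for PSMA6, PSME3 and PSMB8 in green, with an overlapping listed gene stacked in grey, in each of the 3 libraries. For PSMA6 the grey part is smallest with SFE, for PSME3 it is similar in all libraries, and for PSMB8 it is small.

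The structural beta subunits showed larger differences, with medians over the 4 genes of 0.42 with SFA and 0.21 with SFE. PSMB2 (chr1:35599544-35641844) had 2279 (DMSO), 2542 (SFA) and 1932 (SFE) in counts and was at 16.5 (DMSO), 25.3 (SFA) and 19.2 (SFE) in FPKM. Its ratio to DMSO was 1.53 (1.45 to 1.62) for SFA and 1.17 (1.1 to 1.24) for SFE, and these intervals do not overlap. PSMB3 (chr17:38752736-38764231) had 5700 (DMSO), 5867 (SFA) and 4829 (SFE) in counts and was at 152 (DMSO), 215 (SFA) and 177 (SFE) in FPKM. Its ratio was 1.42 (1.37 to 1.47) for SFA and 1.17 (1.12 to 1.21) for SFE, the same order as for PSMB2. PSMB1 had the reverse order of the compounds, with 2011 (DMSO), 1866 (SFA) and 2170 (SFE) in counts and 42.1 (DMSO), 53.7 (SFA) and 62.4 (SFE) in FPKM. Its ratio was 1.28 (1.2 to 1.36) for SFA and 1.48 (1.4 to 1.58) for SFE. PSMB4, at 64.3 (DMSO), 69 (SFA) and 69.1 (SFE), had ratios of 1.07 and 1.08. None of these 4 genes overlaps another listed gene.

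The 3 standard catalytic subunits were all higher in both compound libraries. PSMB6 (chr17:4796144-4798503), the caspase-like site, had 1603 (DMSO), 2064 (SFA) and 1844 (SFE) in counts and was at 33.1 (DMSO), 58.6 (SFA) and 52.3 (SFE) in FPKM. Its ratio to DMSO was 1.77 (1.66 to 1.89) for SFA and 1.58 (1.48 to 1.69) for SFE, the largest of the core genes with SFA. PSMB7, the trypsin-like site, had 5048 (DMSO), 4696 (SFA) and 4366 (SFE) in counts and was at 110.0 (DMSO), 141 (SFA) and 131 (SFE) in FPKM, with ratios of 1.28 (1.23 to 1.33) and 1.19 (1.14 to 1.24). PSMB5, the chymotrypsin-like site and the main target of proteasome inhibitor drugs, had 2896 (DMSO), 2292 (SFA) and 2742 (SFE) in counts and was at 43.7 (DMSO), 47.5 (SFA) and 56.9 (SFE) in FPKM. Its ratio was 1.09 (1.03 to 1.15) for SFA and 1.3 (1.24 to 1.37) for SFE. The order of the compounds for PSMB5 was therefore the reverse of that for PSMB6 and PSMB7, by small amounts.

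Of the immune subunits, PSMB8 was lower and PSMB10 higher in both compound libraries, and PSMB9 did not differ beyond its counting error. PSMB8 (ENSG00000204264, chr6:32840717-32844703, - strand), the immune counterpart of PSMB5, had 609 (DMSO), 226 (SFA) and 298 (SFE) in counts and was at 10.5 (DMSO), 5.38 (SFA) and 7.09 (SFE) in FPKM. Its ratio to DMSO was 0.511 (0.436 to 0.596) for SFA and 0.673 (0.584 to 0.774) for SFE, the lowest ratios of all 47 genes in both comparisons. PSMB9, the counterpart of PSMB6, lies on the opposite strand and overlaps PSMB8 in the annotation. PSMB9 counts were only 88 (DMSO), 66 (SFA) and 78 (SFE), or 1.12 (DMSO), 1.16 (SFA) and 1.37 (SFE) in FPKM. The ratios for PSMB9 were 1.03 (0.738 to 1.44) and 1.22 (0.887 to 1.67), both with an interval that holds 1, so a difference was not detectable at this depth. PSMB10 (chr16:67934502-67937087), the counterpart of PSMB7, had 193 (DMSO), 198 (SFA) and 223 (SFE) in counts and was at 3.12 (DMSO), 4.4 (SFA) and 4.95 (SFE) in FPKM. Its ratio was 1.41 (1.15 to 1.73) for SFA and 1.59 (1.3 to 1.94) for SFE. A listed transcript that overlaps PSMB10 on the same strand, CTC-479C5.12, had ratios of its own of 1.46 and 1.65, the same direction as PSMB10 in both libraries.

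Set against its standard counterpart, PSMB8 was 19.4% of the summed FPKM of PSMB8 and PSMB5 with DMSO (exact binomial 95% interval of the counts, rescaled by length, 18.1 to 20.8), 10.2% with SFA (8.94 to 11.5) and 11.1% with SFE (9.93 to 12.3). The DMSO library was the high one, and the intervals of the compound libraries overlapped. PSMB9 was 3.28% of its pair with PSMB6 in DMSO (2.64 to 4.04), 1.94% in SFA (1.5 to 2.47) and 2.55% in SFE (2.02 to 3.18). PSMB10 was 2.76% of its pair with PSMB7 in DMSO (2.38 to 3.17), 3.03% in SFA (2.63 to 3.48) and 3.65% in SFE (3.19 to 4.15). The standard subunit thus made up most of each pair in every library. With the length of the merged exons, the PSMB8 share was lower in each library, at 11%, 5.49% and 6.02%, in the same order.

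**Figure D4:**
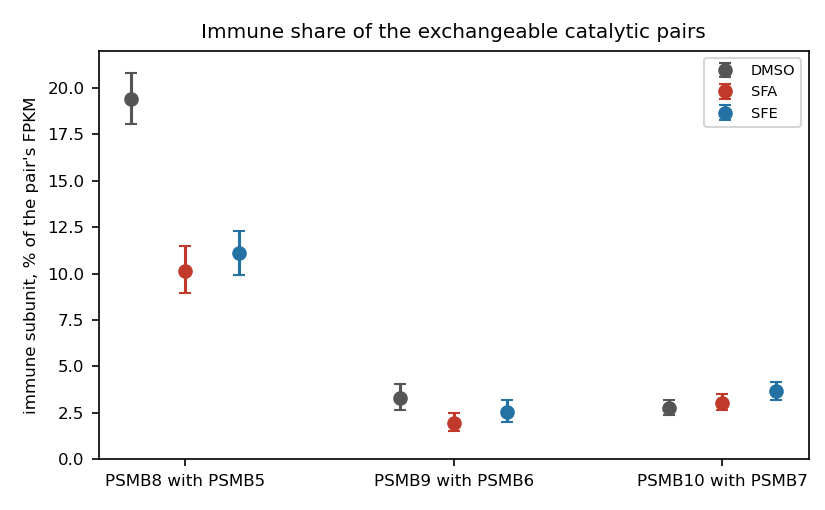
Immune subunit as a percent of the FPKM of its catalytic pair (vertical axis, from 0) for PSMB8 with PSMB5, PSMB9 with PSMB6 and PSMB10 with PSMB7 in each library, with the 95% interval for counting error. The PSMB8 share is 19.4% with DMSO and near 10 to 11% with either compound, and the other pairs stay under 4%.

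The other genes listed for antigen presentation, the pathway that uses the peptides cut by the immune subunits, were mostly not lower, unlike PSMB8. Of 8 such genes, all detected, 7 were higher with SFA (51.4% of all genes were), with a median difference of 0.32. At least 1.2-fold higher with SFA were 4 (18.8% of all genes), and none was 1.2-fold lower (17.2%). With SFE, 6 were higher (55.2% of all genes) and 2 lower, with a median of 0.19. At least 1.2-fold higher with SFE were 3 (19.6%), and none was 1.2-fold lower (13.5%). NLRC5, an activator of MHC class I genes, was the one below DMSO in both libraries, at 10.3 (DMSO), 8.57 (SFA) and 9.79 (SFE) in FPKM, with ratios of 0.836 (0.797 to 0.876) and 0.955 (0.913 to 0.999). B2M, the light chain of MHC class I, was at 28.6 (DMSO), 46.4 (SFA) and 27.7 (SFE) in FPKM, with ratios of 1.62 and 0.968. TAPBP, which helps load peptide onto class I, was at 10.7 (DMSO), 16.6 (SFA) and 13.2 (SFE). IRF1, a transcription factor of the interferon response, was at 1.17 (DMSO), 1.94 (SFA) and 1.75 (SFE). TAP1, the peptide transporter whose gene neighbours and overlaps PSMB9 on the opposite strand, was at 14.2 (DMSO), 14.7 (SFA) and 15.9 (SFE). B2M was high in the SFA library only, TAPBP and IRF1 were high in both, and TAP1 was nearly level.

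The 17 genes of the regulatory particle had smaller medians than the core; that difference was not tested. With SFA, 14 were higher (82.4%, against 51.4% of all genes), the median difference was 0.14 and 6 were at least 1.2-fold higher (35.3%, against 18.8%). With SFE, 11 were higher (64.7%, against 55.2%), the median was 0.12 and 3 were at least 1.2-fold higher (17.6%, against 19.6%). With median-ratio scaling the medians were 0.11 and 0.05, and with SFE 1 of the 17 was past 1.2-fold, where 15% of all genes were. The share of the regulatory particle past 1.2-fold with SFE was thus not above that of all genes under either scaling.

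The 6 ATPases, which unfold the substrate, had medians of 0.18 with SFA and 0.09 with SFE. PSMC1 was at 5.54 (DMSO), 7.5 (SFA) and 6.81 (SFE) in FPKM, with ratios to DMSO of 1.35 (1.23 to 1.49) and 1.23 (1.11 to 1.36). NRDE2, which overlaps PSMC1 on the opposite strand, had a ratio of 0.772 with SFA. The sum of PSMC1 and NRDE2 was nearer to DMSO, at 1.09-fold (1.01 to 1.17) with SFA and 1.13-fold (1.05 to 1.22) with SFE. PSMC3 was at 51.5 (DMSO), 64.5 (SFA) and 56.3 (SFE), with 1.25 and 1.09. PSMC4, at 48.5 (DMSO), 58.2 (SFA) and 58.8 (SFE), had 1.2 and 1.21. These 3 were higher in both libraries, whereas PSMC2 and PSMC5 lay between 0.97 and 1.08. PSMC6 (chr14:52707172-52728587) was the ATPase with the lowest level and the only one whose interval lay below 1. It had 290 (DMSO), 139 (SFA) and 166 (SFE) in counts and was at 1.17 (DMSO), 0.772 (SFA) and 0.922 (SFE) in FPKM. Its ratio was 0.659 (0.535 to 0.81) for SFA and 0.787 (0.647 to 0.956) for SFE. The interval stays below 1 in both, from 290 counts or fewer a library.

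Of the other base subunits, PSMD4, a receptor for ubiquitin chains, was higher. PSMD4 had 1917 (DMSO), 1896 (SFA) and 1749 (SFE) in counts and was at 17.2 (DMSO), 23.5 (SFA) and 21.6 (SFE) in FPKM, with ratios of 1.36 (1.28 to 1.45) for SFA and 1.25 (1.18 to 1.34) for SFE. PSMD2, the large scaffold that was the most abundant gene of the particle, was at 75.3 (DMSO), 83.2 (SFA) and 83 (SFE), with ratios of 1.1 and 1.1. The related scaffold PSMD1 was at 15.2 (DMSO), 14.1 (SFA) and 14.7 (SFE), with 0.929 (0.87 to 0.991) and 0.971 (0.91 to 1.04). PSMD2 and PSMD1 thus lay on opposite sides of DMSO, beyond counting error with SFA only.

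The 8 lid genes, which hold and surround the deubiquitinase, had medians of 0.13 with SFA and 0.07 with SFE, and the second turned to -0.0035 with median-ratio scaling. PSMD8 was at 26.5 (DMSO), 34.5 (SFA) and 34.2 (SFE) in FPKM, with ratios of 1.31 (1.24 to 1.37) and 1.29 (1.23 to 1.36). PSMD13 was at 12.7 (DMSO), 16.3 (SFA) and 14.1 (SFE), with 1.28 and 1.11, and PSMD3 at 54.3 (DMSO), 65.5 (SFA) and 59.3 (SFE), with 1.21 and 1.09. Of these structural subunits, PSMD8 was past 1.2-fold in both libraries and the others with SFA only. PSMD14, the deubiquitinase itself, had 1060 (DMSO), 781 (SFA) and 671 (SFE) in counts and was at 6.65 (DMSO), 6.74 (SFA) and 5.79 (SFE) in FPKM. Its ratio was 1.01 (0.923 to 1.11) for SFA and 0.871 (0.789 to 0.96) for SFE, so that the catalytic lid subunit was not above DMSO beyond counting error in either library. PSMD12 was at 6.36 (DMSO), 5.82 (SFA) and 5.99 (SFE), with ratios of 0.914 (0.828 to 1.01) and 0.941 (0.853 to 1.04), whose intervals hold 1. PSMD7, the partner of PSMD14, had 1.06 and 0.904, PSMD11 had 1.12 and 1.14, and PSMD6 had 1.1 and 1.01.

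**Figure D5:**
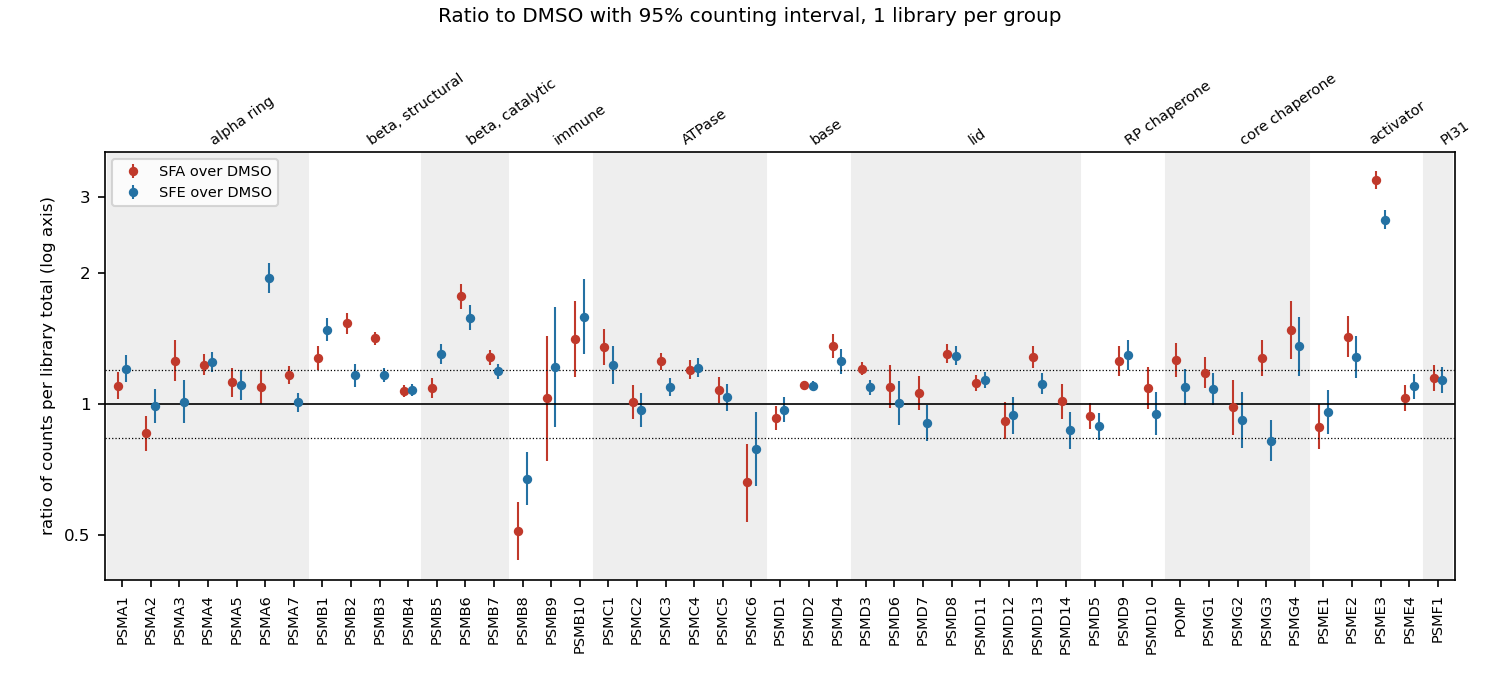
Ratio of counts per library total to DMSO (log axis) for each detected gene, red for SFA and blue for SFE, with the 95% counting interval as a bar, grouped by role (RP is the regulatory particle, PI31 the product of PSMF1). The dotted lines mark 1.2-fold in each direction. PSME3 stands far above all others in both libraries, PSMB8 and PSMC6 lie lowest with SFA, and PSMA6 is high with SFE only.

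Among the activator caps, PSME3 was several times higher in both compound libraries. PSME3 (ENSG00000131467, chr17:42824385-42843758, + strand) encodes PA28 gamma, the nuclear activator of the core. Its counts were 2387 (DMSO), 5688 (SFA) and 4616 (SFE), and it was at 8.7 (DMSO), 28.5 (SFA) and 23.1 (SFE) in FPKM. Both compound libraries were far above DMSO, SFA the higher of the pair. The ratio to DMSO was 3.28 (3.13 to 3.44) for SFA and 2.66 (2.53 to 2.8) for SFE, the largest of the 47 genes in both comparisons. By deposited FPKM it ranked 32nd of the 47 members with DMSO, 14th with SFA and 15th with SFE. PSME3 overlaps BECN1, an autophagy gene on the opposite strand, which was at 36.1 (DMSO), 38.1 (SFA) and 39.4 (SFE) CPM. The sum of both genes was still 2.79-fold higher with SFA and 2.31-fold higher with SFE.

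The other activators lay much nearer to DMSO. PSME1 and PSME2 encode the partners of the interferon-inducible PA28 alpha-beta ring. PSME1 had 714 (DMSO), 460 (SFA) and 497 (SFE) in counts and was at 8.85 (DMSO), 7.84 (SFA) and 8.47 (SFE) in FPKM, with ratios of 0.886 (0.787 to 0.998) and 0.957 (0.852 to 1.08). PSME2 was at 2.98 (DMSO), 4.26 (SFA) and 3.82 (SFE), with 1.43 (1.28 to 1.59) and 1.28 (1.14 to 1.43). The partners therefore lay on opposite sides of DMSO, beyond counting error with SFA only. Each overlaps a gene on the other strand, EMC9 for PSME1 and RNF31 for PSME2. With SFA the sum of PSME1 and EMC9 was 0.963-fold of DMSO (0.866 to 1.07), an interval that holds 1. The sum of PSME2 and RNF31 was 1.28-fold (1.19 to 1.39). PSME4, the large activator PA200, was at 7.29 (DMSO), 7.5 (SFA) and 8.0 (SFE), with 1.03 and 1.1. PSMF1, whose product PI31 inhibits the core in vitro, was at 9.15 (DMSO), 10.5 (SFA) and 10.4 (SFE), with 1.15 (1.07 to 1.23) and 1.14 (1.06 to 1.22).

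The chaperones of core assembly were mostly higher with SFA and nearer to DMSO with SFE. On the log2(FPKM + 1) scale the median over the 5 genes was 0.33 with SFA, with 3 of 5 at least 1.2-fold higher (18.8% of all genes were). With SFE the median was 0.11, with none at least 1.2-fold higher (19.6% of all genes). PSMG4, near 1 FPKM, fell just short on that scale with SFE. POMP (chr13:28659104-28678925), which drives the joining of the half-barrels, had 991 (DMSO), 911 (SFA) and 789 (SFE) in counts and was at 37 (DMSO), 46.8 (SFA) and 40.5 (SFE) in FPKM. Its ratio was 1.26 (1.15 to 1.39) for SFA and 1.1 (0.996 to 1.2) for SFE, whose interval holds 1. PSMG3 (chr7:1567330-1571005), a chaperone of the alpha ring, had 876 (DMSO), 813 (SFA) and 524 (SFE) in counts and was at 15.9 (DMSO), 20.3 (SFA) and 13.1 (SFE) in FPKM. The ratio for PSMG3 was 1.28 (1.16 to 1.41) for SFA and 0.823 (0.737 to 0.918) for SFE, on opposite sides of DMSO. PSMG4, the partner of PSMG3, was at 1.25 (DMSO), 1.86 (SFA) and 1.7 (SFE), with 1.48 (1.27 to 1.73) and 1.36 (1.16 to 1.59). TUBB2B and SLC22A23, which overlap PSMG4 on the opposite strand, were also higher than with DMSO, SLC22A23 by 1.55-fold and 1.66-fold. PSMG1 had ratios of 1.18 and 1.08 and its partner PSMG2 had 0.983 and 0.918.

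The 3 chaperones of the regulatory particle went different ways. PSMD9 was at 4.74 (DMSO), 5.94 (SFA) and 6.14 (SFE) in FPKM, with ratios of 1.25 (1.16 to 1.36) and 1.3 (1.2 to 1.4). PSMD5 had 2022 (DMSO), 1377 (SFA) and 1305 (SFE) in counts and was at 17 (DMSO), 16 (SFA) and 15.1 (SFE) in FPKM, with 0.937 (0.874 to 1.0) and 0.888 (0.827 to 0.952). PSMD10, known as gankyrin, was at 7.97 (DMSO), 8.65 (SFA) and 7.57 (SFE), with 1.09 and 0.951. Scaled by library totals, PSMD9 was higher in both compound libraries, and PSMD5 was lower beyond counting error with SFE only. With median-ratio scaling the PSMD5 ratios were 0.915 and 0.84. Over all 8 assembly factors the median was 0.25 with SFA and 0.02 with SFE, and the second turned to -0.05 with median-ratio scaling.

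The compound libraries were also set side by side, although the doses differed (12 µM SFA, 18 µM SFE), so that compound and dose cannot be told apart. The median of the members, SFE minus SFA, was -0.06 beside 0.02 over all genes, and 18 of 47 were higher with SFE (38.3%, against 55.6% of all genes). PSMA6 and PSMB8 were the 2 members at least 1.2-fold higher with SFE (10.8% of all genes). PSMA3, PSMB2, PSMB3, PSME3 and PSMG3 were the 5 at least 1.2-fold lower (7.75% of all genes). The ratio of SFE to SFA was 0.644 (0.576 to 0.72) for PSMG3, 0.76 (0.716 to 0.806) for PSMB2, 0.811 (0.78 to 0.844) for PSME3 and 1.32 (1.11 to 1.57) for PSMB8. The counting interval of this ratio held 1 for 25 members, lay below 1 for 16 (34%, against 13.2% of all genes) and above 1 for 6 (12.8%, against 19.7%).

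The members were also split by the antioxidant response element core in their promoter window. The 13 detected members with TGACNNNGC had a median difference of 0.04 with SFA, with 4 at least 1.2-fold higher (30.8%), and 0.12 with SFE, with 3 (23.1%). The 28 detected members with a window but no match had 0.15 with SFA, with 11 (39.3%), and 0.14 with SFE, with 6 (21.4%). Over all genes the shares were 18.8% with SFA and 19.6% with SFE, so with SFE both sets lay near them. The SFA ratios of the 13 with the motif ran from 0.886 (PSME1) to 1.43 (PSME2). PSMB3 and PSMD3, printed above, are among them, with 1.42 and 1.21 for SFA and 1.17 and 1.09 for SFE.

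Genes that act on the same path outside the name rule were taken from 3 further lists. NFE2L1, the factor known to drive subunit transcription, was at 10.4 (DMSO), 11.2 (SFA) and 12.8 (SFE) in FPKM, with ratios of 1.08 (1.03 to 1.12) and 1.23 (1.18 to 1.29). NFE2L2, its relative in the oxidative stress response, was at 6.06 (DMSO), 3.46 (SFA) and 3.57 (SFE), with 0.571 (0.517 to 0.631) and 0.589 (0.534 to 0.65). KEAP1, the adaptor that holds NFE2L2 low, was at 18.5 (DMSO), 27.7 (SFA) and 25 (SFE). In both compound libraries NFE2L2 was lower and KEAP1 higher than with DMSO. The small MAF proteins are the DNA-binding partners of both factors. MAFG was at 8.53 (DMSO), 11.8 (SFA) and 14.9 (SFE), and MAFK at 5.51 (DMSO), 7.04 (SFA) and 1.86 (SFE). MAFK was low in the SFE library only, with a ratio of 0.338 (0.284 to 0.4). Of the 8 detected genes of this list, which also holds the processing enzymes, 6 were higher with SFA (51.4% of all genes were). Their median with SFA was 0.09, with 3 at least 1.2-fold higher (18.8% of all genes) and 1 at least 1.2-fold lower (17.2%). With SFE, 4 were higher (55.2% of all genes) and the median was 0.01. At least 1.2-fold higher with SFE were 3 (19.6%), and 2 were at least 1.2-fold lower (13.5%). MAFF, the remaining small MAF gene, stayed under 1 FPKM and is not among the 8. It had 28 (DMSO), 111 (SFA) and 107 (SFE) in counts, with ratios of 5.45 (3.58 to 8.58) and 5.26 (3.44 to 8.28), the largest of the list.

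Among the 9 detected factors that bind the proteasome but carry other names, 4 were higher with SFA (51.4% of all genes were). Their median with SFA was -0.04, with 1 at least 1.2-fold higher (18.8% of all genes) and 1 at least 1.2-fold lower (17.2%). With SFE, 5 were higher (55.2% of all genes) and the median was 0.00. At least 1.2-fold higher with SFE was 1 (19.6%), and none was 1.2-fold lower (13.5%). ZFAND2A, a stress-induced binder of the regulatory particle, was at 2.9 (DMSO), 4.16 (SFA) and 5.14 (SFE) in FPKM, with ratios of 1.44 (1.19 to 1.73) and 1.77 (1.49 to 2.12). UCHL5, a deubiquitinase of the particle, was at 1.67 (DMSO), 0.992 (SFA) and 1.24 (SFE), and its anchor ADRM1 at 122 (DMSO), 144 (SFA) and 135 (SFE). UCHL5 was thus lower and ADRM1 higher in both compound libraries. SHFM1 (also called SEM1), the remaining gene of this list, stayed under 1 FPKM and is not among the 9. It had 117 (DMSO), 62 (SFA) and 45 (SFE) in counts. Its ratios were 0.729 (0.527 to 1.0) and 0.529 (0.366 to 0.752), the second below 1 beyond counting error.

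The 12 shuttle and p97 genes, which bring substrates to the proteasome, had medians of 0.01 and 0.07. Their single gene at least 1.2-fold lower with SFA (17.2% of all genes were) was DDI2, the protease that activates NFE2L1. DDI2 was at 4.96 (DMSO), 3.6 (SFA) and 4.14 (SFE) in FPKM. UBQLN2 and NSFL1C were at least 1.2-fold higher with SFE (19.6% of all genes were), with ratios of 1.32 and 1.27. With SFA, the median of each of these last 2 lists was nearer to that of all genes than the median of the proteasome genes was.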

How the data were processed

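RNA of AGS cells was measured in 3 libraries, 1 per group (DMSO, 12 µM SFA, 18 µM SFE), so no test between groups was possible and no p-value is given. The authors deposited 1 table of raw counts per gene and FPKM. The deposited counts are whole numbers, and HISAT2 2.0.4, StringTie 1.2.3 and build hg38 are named in the submitters' processing notes without their roles. Which tool counted, with which strand setting and annotation release, is not given in the sources used here; strand-blind counting would mix overlapping genes. Each deposited FPKM is a count over 1 fixed gene length and the total of its library (implied lengths agreed between libraries within 0.0831% over 22070 genes), so it corrects for neither composition nor length bias.

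Genes were taken by the name rule, each with 1 row in the table. Differences of log2(FPKM + 1) were computed for gene names that reached 1 FPKM in any library. Ratios are counts per library total, with the exact conditional binomial (Clopper-Pearson) 95% interval, and the 2 shares with exact binomial intervals; all cover counting error only. The interval was tested on simulated counts that held counting error only, so that test cannot speak to variation between libraries. Depths were 13639844 to 18767232 counts. Calculations used Python 3.11.15, numpy 2.4.6, pandas 2.3.3, scipy 1.17.1 and matplotlib 3.10.9. Named in full were the 5 members with the largest difference in each direction per compound, PSMB5 to PSMB10, POMP and NFE2L1. Up to 3 detected genes per related list were named for the largest difference from DMSO. NLRC5, TAP1, KEAP1, MAFF and SHFM1 were named outside this rule. Other members are given more briefly. The members, the lists and the 1.2-fold and 2-fold limits were chosen with earlier results of these data known. Alternatives were median-ratio size factors, a pseudocount of 0.1, a filter of 5 FPKM or none, members that overlap no other listed gene, summed rows per gene name, and totals without mitochondrially encoded genes. The length of the merged exons in GENCODE 29 was added after seeing the data. Overlap with other genes was read from the gene bounds in the deposited table. A further related list was computed and is not reported here.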

Additional observations from a re-analysis of the deposited data

Results flagged for a closer look

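PSMG3, a chaperone of the alpha ring, was higher than DMSO with SFA (1.28-fold) and lower with SFE (0.823-fold). Its ratio of SFE to SFA was 0.644 (95% counting interval 0.576 to 0.72), the lowest of the 47 detected proteasome genes. It was singled out because the compound libraries lie on opposite sides of DMSO. With 1 library per group the difference was not tested, and the doses differ. PSMG3-AS1, which overlaps PSMG3 on the opposite strand, had 5 (DMSO), 9 (SFA) and 34 (SFE) counts, and the sum of both genes was 1.28-fold and 0.871-fold of DMSO.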

How the results depend on the processing

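The medians of the members kept their direction in all 3 comparisons under every alternative run. The number at least 1.2-fold higher with SFE was 12 and became 7 with median-ratio size factors (14.9%, against 15% of all genes). It was 16 with a pseudocount of 0.1 (34%, against 25.2%) and 10 of 41 with the filter of 5 FPKM (24.4%, against 18.4%). Over the 19 detected members that overlap no other listed gene, which is a smaller set, the numbers were 11 with SFA (57.9%, against 20.3% of all such genes), 6 with SFE (31.6%, against 19.7%) and 0 for SFE against SFA (against 8.79%). Without the mitochondrially encoded genes in the total, the summed share of the members was 0.591% (DMSO), 0.722% (SFA) and 0.685% (SFE). With merged exon lengths, an alternative added after seeing the data, the immune share in the DMSO, SFA and SFE libraries was 11%, 5.49% and 6.02% for PSMB8, 2.52%, 1.48% and 1.95% for PSMB9, and 3.56%, 3.91% and 4.69% for PSMB10. This changes the levels but not the order of the libraries. Of 40 single-gene ratios, 36 stayed within their counting interval under median-ratio size factors and 4 moved out of it (SFE to DMSO: PSMB3 1.1, PSMB5 1.23, PSMB7 1.13, PSME3 2.52). Among the 36, PSMD14 with SFA crossed 1 within its interval, from 1.01 to 0.99. Outside the 40, PSMC2 with SFA and PSMA3, PSMA7, PSMC5 and PSMD6 with SFE also passed below 1. All ratios to DMSO were lower with these size factors. The counting intervals were computed with library totals only, so which of them hold 1 depends on that scaling. No paired analysis was possible because each group has 1 library. Depth limits the genes with fewest counts, above all PSMB9, with 66 to 88 counts a library.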

Other observations

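The table also lists 29 pseudogenes of the proteasome genes. They summed to 74 (DMSO), 71 (SFA) and 67 (SFE) counts, of which PSMC1P1 held 40, 45 and 39.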
